A study of Drosophila melanogaster with 4 samples.

Results

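The very wide H3K79me1 domains described here are the regions of 10 kb or more on the chromosome arms 2L, 3L and 3R of Drosophila melanogaster. They were chosen by their width in the authors' list for both ChIP replicates combined, and they numbered 368 of the 12942 enriched regions in that list. The 3 arms held 8216 of these regions. The material was nuclei from the heads of adult Oregon-R flies, a wild-type strain, labelled as a mixed adult stage. It gave 2 libraries from chromatin immunoprecipitation and sequencing (ChIP-seq) with an H3K79me1 antibody from a single supplier lot, and 2 input libraries of genomic DNA from the same kind of nuclei. No group carried an altered genotype or a treatment. A head holds many cell types, so strong marking in few cells and weak marking in many cannot be told apart. Whether separate collections of flies underlie the replicates is not stated, so their spread may be technical.

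H3K79me1 is a single methyl group on a lysine of the globular core of histone H3, a residue exposed on the surface of the nucleosome disc. Enzymes of the Dot1 family, called grappa in flies, place it without a SET domain, and they add methyl groups one after another, so that mono-, di- and trimethylated forms exist side by side. The mark is generally found along transcribed genes. In flies, mutations of grappa disturb silencing at telomeres and give phenotypes like those of Polycomb and trithorax mutants. Coordinates below are 1-based on FlyBase release 5, the build named in the file headers. No gene models of that release were used here, so domains are named by position and not by gene. Where a pair of replicate values is given without labels, replicate 1 comes first.

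Although few in number, the very wide domains made up a large part of the marked sequence. They were 4.48% of the regions on the 3 arms and 23.4% of the marked length, and they spanned 6.43 Mb of the 75.5 Mb of these arms. 3R carried 147 of them (5.27 per Mb), 3L carried 124 (5.05 per Mb) and 2L carried 97 (4.22 per Mb). They covered 9.28% of 3R, 8.96% of 3L and 7.14% of 2L. Their widths hardly differed between the arms, with medians of 14535 bp on 2L, 13726 bp on 3L and 13993 bp on 3R. These numbers follow from the width rule and from where the deposited regions begin and end, and no test was made of them. When regions less than 1000 bp apart were first merged, 676 domains passed the same minimum and covered 17.8% of the arms.

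Most domains were close to the minimum width, with a thin tail of much wider ones. Widths of 10 to 15 kb were found in 212 domains, 15 to 20 kb in 71, 20 to 30 kb in 51 and 30 kb or more in 34, of which 12 reached 40 kb. The domains of at least 20 kb, 85 in number, held 2.66 Mb of the 6.43 Mb. The width minimum fell in a continuous range. The 3 narrowest domains measured 10003 bp, 10005 bp and 10019 bp, and the 3 widest regions left out measured 9993 bp, 9981 bp and 9965 bp. Scores of the former were 0.43, 0.51 and 0.51, and those of the latter 0.58, 0.60 and 0.47, all in log2.

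The widest domains on each arm differed greatly in score and in how whole they were. On 3R, a domain of 55.7 kb from 17712770 to 17768476 scored 0.76, and 88.5% of it lay in the replicate 1 list and 90.2% in the replicate 2 list. One of 54.2 kb from 19431204 to 19485412 scored 0.80, and the lists of replicates 1 and 2 held 89.6% and 77.9% of it. In both replicates its left part was a single region, of 31.25 kb in replicate 1 and 31.2 kb in replicate 2. Another, of 41.1 kb from 22390690 to 22431798, scored 0.88. It consisted of 2 regions of 18.9 kb and 16.0 kb in replicate 1, whereas 1 region of 38.5 kb filled 93.6% of it in replicate 2. The widest domain of all, 90045 bp from 21169274 to 21259318, was made up in replicate 1 of pieces of 2.81, 7.16, 30.9, 22.9, 17.6 and 3.51 kb. The next widest, 61.7 kb from 15760668 to 15822356, had 8 pieces of up to 20.8 kb in replicate 1 and 11 of up to 10.5 kb in replicate 2.

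On 3L, the domain of 51.8 kb from 6270772 to 6322526 was split into 8 regions in each replicate list, which covered 79.6% and 76.1% of it in replicates 1 and 2. Its longest piece measured 19.6 kb in replicate 1 and lay in the interior of the domain, and the longest in replicate 2 measured 10.24 kb and was the last before a stretch of 4142 bp without a replicate 2 region at the right end. The domain of 51.5 kb from 12199570 to 12251082 lay to 91.9% in 8 regions of replicate 1 and to 95.1% in 3 of replicate 2, the longest of which measured 31.6 kb. The domain of 43.1 kb from 9623658 to 9666784 had the highest score of the 12 widest, 1.00. Replicate 2 covered 95.3% of it with 1 region, and replicate 1 covered 95.3% with 3. The domain of 45.9 kb from 21380112 to 21426048 scored 0.69 and comprised 8 replicate 1 regions and 6 replicate 2 regions, with 80.2% and 80.6% of its length inside them. At the other extreme, the widest 3L domain, of 59.2 kb, scored 0.57 and lay in 13 regions in replicate 1, none longer than 4.95 kb.

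On 2L, the widest domain, of 55.9 kb, scored 0.65 and was split into 11 regions in replicate 1 and 8 in replicate 2, with longest pieces of 8.92 kb and 22.4 kb. The other 4 of the 5 widest domains were 32.7 to 36.5 kb wide. The one from 21272352 to 21307776 was 35.4 kb wide, scored 0.81 and was the last domain before the centromere. Replicate 1 held 98.6% of it and replicate 2 held 98.2%. The one from 310864 to 347378, near the telomere, scored 0.87 and was covered to 96.8% and 89.1% by replicates 1 and 2. The one from 5236088 to 5268782 scored 0.89 and was a single region over 97.4% of its length in replicate 1, but 3 regions in replicate 2. The one from 19619616 to 19653030 scored 0.69 and was split into 7 regions in replicate 1 and 5 in replicate 2.

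**Figure D1:**
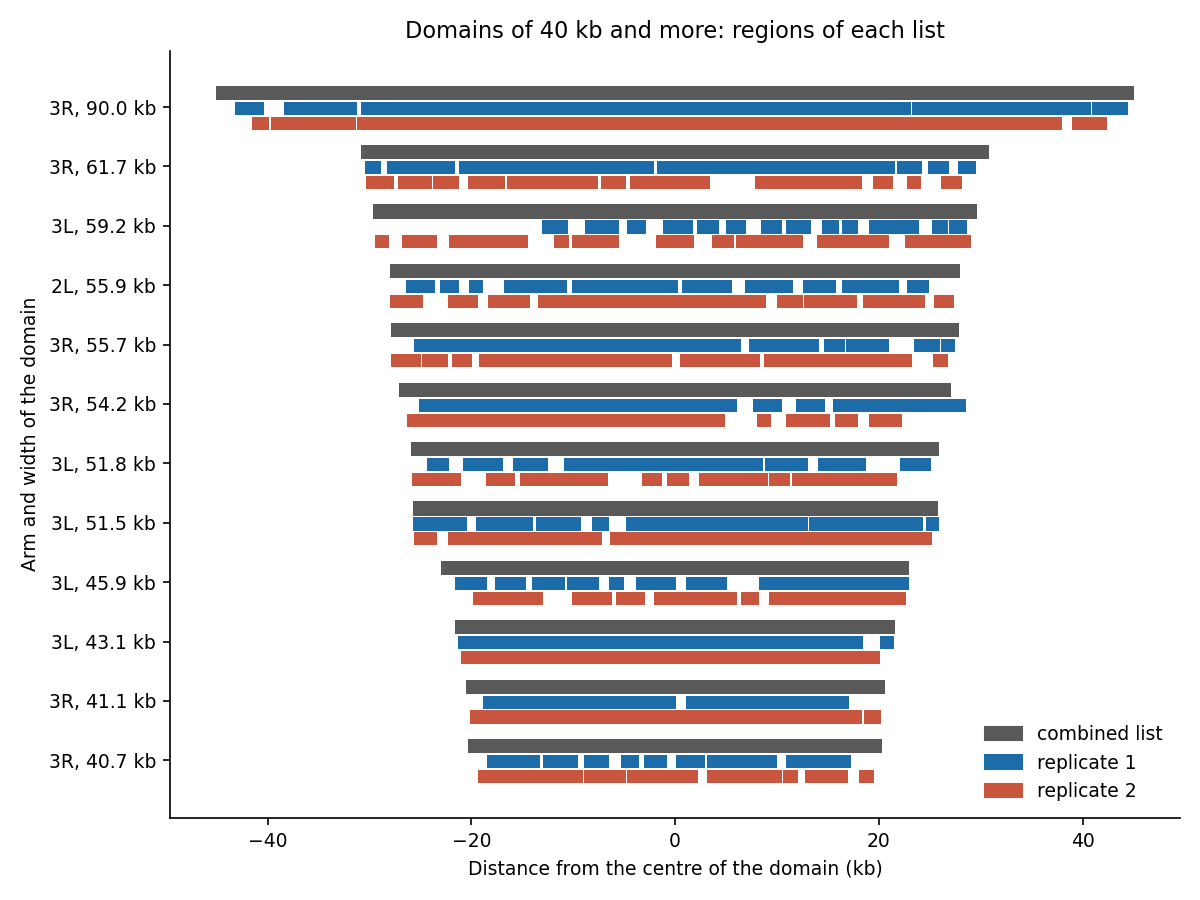
Regions of the combined list (grey), the replicate 1 list (blue) and the replicate 2 list (red) in the 12 domains of 40 kb and more, drawn by distance from the domain centre in kb, one domain per row. Some domains are a near-continuous stretch in both replicates, whereas the 59.2 kb domain on 3L is a string of short pieces.

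Within the combined list the domains lay high in the distribution of scores, which are log2 values with an unknown constant. Their median score was 0.65 (quartiles 0.57 and 0.75), against 0.57 for regions of 5 to 10 kb, 0.47 for 2 to 5 kb and 0.40 for those under 2 kb. All but 2 of the 368 exceeded the median of all regions on the 3 arms, 0.44. In total 210 domains (57.1%) ranked in the top 10% of scores, as did 304 of the 909 regions of 5 to 10 kb (33.4%). Width and score come from the same signal, so this is a description of the domains and no test was made. They held 34 of the 100 top scores on the 3 arms, where they were 4.48% of the regions. The single highest score on these arms, 2.98, belonged to a narrower region, and the maximum among the domains was 1.13.

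Among the domains, wider ones tended to score higher. Spearman's rho between width and score was 0.39 over 368 domains that share their libraries. Medians were 0.62 at 10 to 15 kb, 0.67 at 15 to 20 kb, 0.72 at 20 to 30 kb and 0.74 at 30 kb or more. Yet the top-scoring of the domains on each arm was near the minimum width. On 3R it was 12.5 kb wide, from 25761660 to 25774114, and scored 1.13. The 3L domain, from 20122342 to 20133920, was 11.6 kb wide and scored 1.10. The 2L domain, from 7472762 to 7483316, was 10.6 kb wide and scored 1.03. Each was a single region in both replicate lists, over 90.1% and 98.7% of the 3R domain, 99.6% and 94.1% of the 3L domain, and 86.7% and 91.4% of the 2L domain in replicates 1 and 2. The lowest scores were 0.42 on 3R from 1908216 to 1918500, 0.43 on 3L from 16389432 to 16399434 and 0.45 on 2L from 17666920 to 17679806. In these 3 domains the covered shares were 15.2%, 32.6% and 21.2% in replicate 1, and 44.0%, 54.6% and 31.9% in replicate 2. On 2L and 3R these were also the domains with the lowest mean covered share. On 3L that was a domain of 10.1 kb from 19745128 to 19755246 with a score of 0.62, of which replicate 1 held 19.7% and replicate 2 held 49.7%.

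Every domain held sequence from both replicate lists. No domain was without a base in the replicate 1 list, while 54.2% of all regions on the 3 arms were. None was without a base in the replicate 2 list, while 49.2% of all regions were. Regions of 5 to 10 kb nearly shared this, as only 24 and 23 of 909 had no base in replicates 1 and 2. Of the 4013 regions under 2 kb, 3430 and 3244 had none. A longer region has more room to hold such a base. The rule chose the domains by width, so this difference is partly built in. Replicate 1 covered 76.7% of the domain length and replicate 2 covered 79.1% (mean 77.9% ± 1.69, SD, n = 2). Regions of 5 to 10 kb were covered to 67.0% ± 2.54, those of 2 to 5 kb to 51.1% ± 5.03 and those under 2 kb to 16.3% ± 3.59. By arm, domain coverage was 77.6% ± 1.13 on 2L, 76.2% ± 2.79 on 3L and 79.4% ± 1.10 on 3R. The values of both replicates on 3R were above those of 2L and 3L, which overlapped each other. The combined list rests on the same 2 ChIP libraries, so these shares describe how the lists relate and are no independent replication. Library depth is unknown from these files.

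Full coverage of a domain by a replicate list was not common. Replicate 1 covered at least 90% of the length in 80 domains (21.7%, against 10.1% of all regions on the 3 arms). Replicate 2 did so in 81 (22.0%, against 14.5% of all regions). Regions of 5 to 10 kb came closer, with 16.5% and 20.4%. Both lists reached 90% in 46 of 368 domains, 58 of 909 regions of 5 to 10 kb and 2.35% of all regions. Under 50% in each list were 9 of 368 domains, 87 of 909 regions of 5 to 10 kb and 43.3% of all regions. Those 9 domains were at most 14.2 kb wide and scored at most 0.62. No domain of 30 kb or more fell under 50% in either list, and the lowest covered share among them was 51.2%. From 10 to 15 kb up to 30 kb or more, the mean covered share rose from 71.7% ± 2.18 to 84.2% ± 1.89 (SD, n = 2).

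Covered shares followed the score more closely than the width. Over the 368 domains, Spearman's rho with the score was 0.76 for replicate 1 and 0.78 for replicate 2, and with the width it was 0.32 for both. Score and replicate regions come from the same libraries, so a relation between them is partly built in. The rule also cut the range of widths at 10 kb but not that of scores. The values are thus a description, and their order was not tested. In 4 equal classes of 92 domains ordered by score, replicate 1 covered 53.8%, 71.0%, 81.1% and 91.1% of the length, and replicate 2 covered 60.5%, 73.4%, 82.8% and 91.3%. Of the 46 domains with at least 90% in each list, 41 were in the highest class, 5 in the next and none in the lower classes. The rise from class to class was larger than the gap between the replicates in each of the 3 steps. That gap rests on 2 lists and does not measure the spread between domains, so the comparison is no test.

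**Figure D2:**
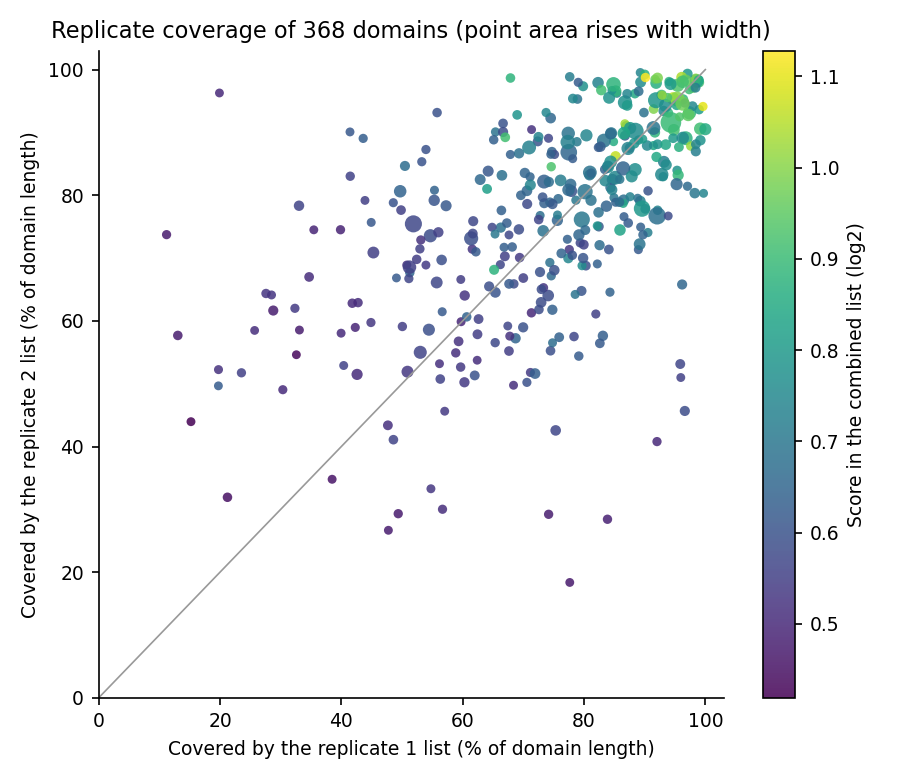
Share of each of the 368 domains covered by the replicate 1 list (x axis, %) and the replicate 2 list (y axis, %), coloured by the score in the combined list (log2), with point area rising with width and a grey line of equal shares. High-scoring domains sit in the upper right corner, and low-scoring ones spread far from the line.

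The replicates covered many domains to a like degree but differed widely in others. The absolute difference between the covered shares had a median of 9.17 percentage points and was under 10 points in 197 of the 368 domains. It reached 30 points in 33 domains, of which 26 (78.8%) were under 15 kb wide, as were 57.6% of all domains. Their median score was 0.56, against 0.66 for the other domains. Replicate 2 had the higher share in 24 of these and replicate 1 in 9. The extreme on 3L was a domain of 10.1 kb from 8341312 to 8351392, with 19.9% in replicate 1 and 96.3% in replicate 2. On 3R it was 11.7 kb from 15511950 to 15523616 (11.2% and 73.7%), and on 2L 11.6 kb from 14411496 to 14423082 (43.6% and 89.0%). Scores of these domains were 0.50, 0.47 and 0.63. Over all domains, Spearman's rho between the covered shares was 0.60.

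Most domains were in 2 or more pieces in the replicate lists. The median domain was made of 3 regions in replicate 1 and 2 in replicate 2, and its longest piece spanned 42.0% and 46.3% of the length. A single region touched the domain in 64 cases in replicate 1 (17.4%, against 36.6% of all regions on the 3 arms). In replicate 2 this held for 66 domains (17.9%, against 41.5% of all regions). Regions of 5 to 10 kb had far higher shares, 59.6% and 58.3%. All regions include 54.2% and 49.2% that no region of replicates 1 and 2 touched, so their shares are not like for like. A single region over at least 90% of the length was found in 8.15% and 8.70% of domains, against 8.85% and 12.9% of all regions. Among the 909 regions of 5 to 10 kb it was found in 114 and 128. The number of pieces rose with width, to a median of 5.5 and 5 at 30 kb or more and a maximum of 13 and 11. In each of the lists at once, 1 region covered at least 90% of 14 domains (141 regions of every width, or 1.72%), 3 on 2L, 7 on 3L and 4 on 3R. All of these scored at least 0.80, and 13 were under 20 kb. The widest of them was 27.7 kb on 2L from 5117578 to 5145282, a single region over 99.2% of it in replicate 1 and 90.6% in replicate 2. On 3L, an 18.5 kb domain from 3199982 to 3218486 was a single region over 98.4% and 98.5% of its length in replicates 1 and 2, and an 18.0 kb domain from 12748190 to 12766184 over 98.0% and 97.1%.

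The sequence missing from the replicate lists was partly shared. Of the domain length, 64.5% was in both lists, 91.2% in at least one and 8.78% in neither. Of the bases missing from replicate 1, 37.6% were missing from replicate 2 as well. Over all domain bases, 20.9% were missing from replicate 2. Among regions of 5 to 10 kb, 45.5% of the bases missing from replicate 1 were also missing from replicate 2, which lacked 31.2% of all bases in those regions. The longest stretch without replicate 1 in a domain had a median of 1900 bp, and without replicate 2 of 1934 bp, ends included. In the 304 and 302 domains with 2 or more pieces, the longest gap between pieces had medians of 1286 bp and 1250.5 bp. In 2 domains no base was in both lists, namely the lowest-scoring domains of 2L and 3R given above.

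Replicate coverage was high through the middle of the domains and low at their edges. As a mean over the 368 domains scaled to equal length, replicate 1 held 80.05% of the central 40% and replicate 2 held 83.8%, while each held 28.8% of the outermost 2% at either end. The first replicate base lay a median of 437 bp (replicate 1) and 495 bp (replicate 2) inside the domain edge, and within 500 bp at 388 and 371 of 736 edges. Regions of 5 to 10 kb had nearly the same offsets, with medians of 466 bp and 390 bp. Outside the domains, the first 1 kb was covered to 11.9% and 11.3%. By definition no region of the combined list holds the first base outside an edge, so low values are built in there. At 5 kb from the edge the replicate lists covered 35.0% and 34.6%, and at 20 kb 27.5% and 30.2%. Around regions of 5 to 10 kb the values were 28.4% and 30.2% at 5 kb and 23.8% and 26.0% at 20 kb.

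**Figure D3:**
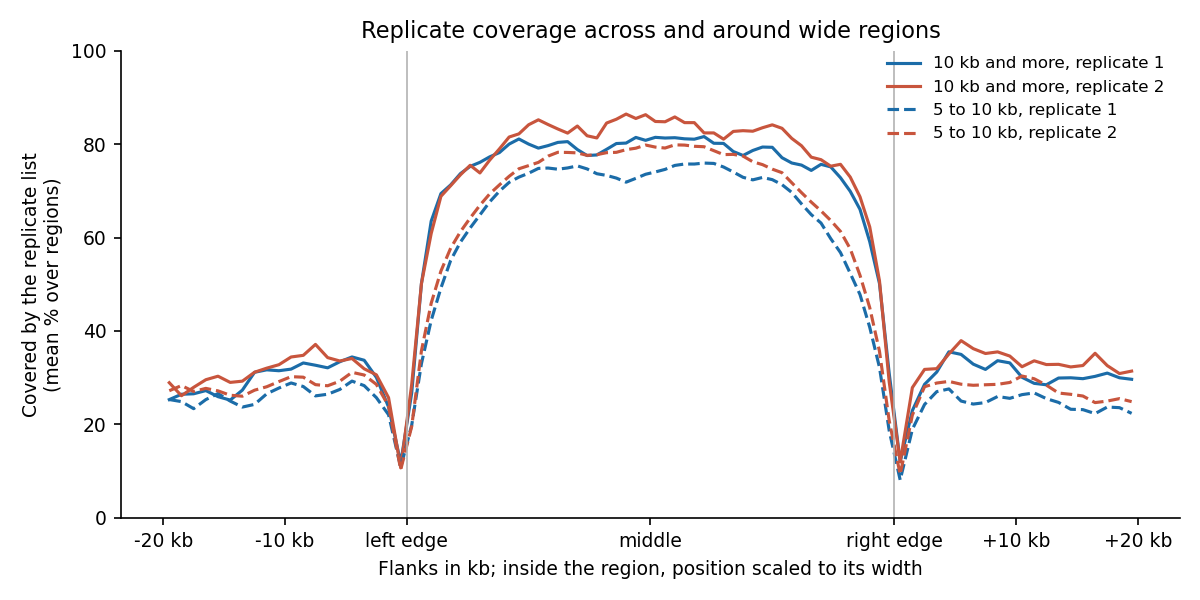
Mean share of sequence covered by each replicate list (y axis, %) across regions scaled to equal length and over 20 kb on either side, for domains of 10 kb and more (solid lines) and regions of 5 to 10 kb (dashed lines). Coverage drops to its lowest in the first kb outside each edge and recovers to about 35% near 5 kb from the domains.

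Domains stood in well-marked surroundings. In the 20 kb on either side, a median of 52.3% of the sequence lay in other regions of the combined list, against 46.7% around regions of 5 to 10 kb and 37.9% around those under 2 kb. In the replicate lists the flanks of domains were covered to 27.5% and 29.0%. The nearest region of any width was a median of 409 bp away, against 655 bp for regions of 5 to 10 kb. For 257 domains (69.8%) it was within 1000 bp, as it was for 56.0% of all regions on the 3 arms, and for 75 (20.4%) within 100 bp, against 11.6% of all regions. Only 20 domains had no region within 5 kb. The most solitary was 11.0 kb on 3R from 22980314 to 22991320, 29.0 kb from its nearest region, with a score of 0.63 and covered shares of 77.3% and 73.0% in replicates 1 and 2.

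The distances between neighbouring domains ranged from 1 bp to 1763 kb. Of 365 gaps, the median was 80.4 kb, with quartiles of 14.7 kb and 246 kb, and the mean of 181 kb was far above the median. The replicate lists alone gave median gaps of 448 kb and 362 kb, and merging of regions less than 1000 bp apart gave 43.8 kb. The shortest was 1 bp, on 3R between the domains from 22224634 to 22237226 and from 22237228 to 22265286. A replicate 1 region ran across this base, and no replicate 2 region did. Gaps of at most 1 kb numbered 28, and 104 (28.5%) were at most 20 kb. By arm, the median gap was 45.3 kb on 2L, 100.9 kb on 3L and 87.0 kb on 3R, whereas the mean gap was longest on 2L (203 kb, against 175 kb on 3L and 172 kb on 3R). 2L had 6 gaps of over 1000 kb, 3R had 2 and 3L had 1, although 2L is the shortest of these arms.

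**Figure D4:**
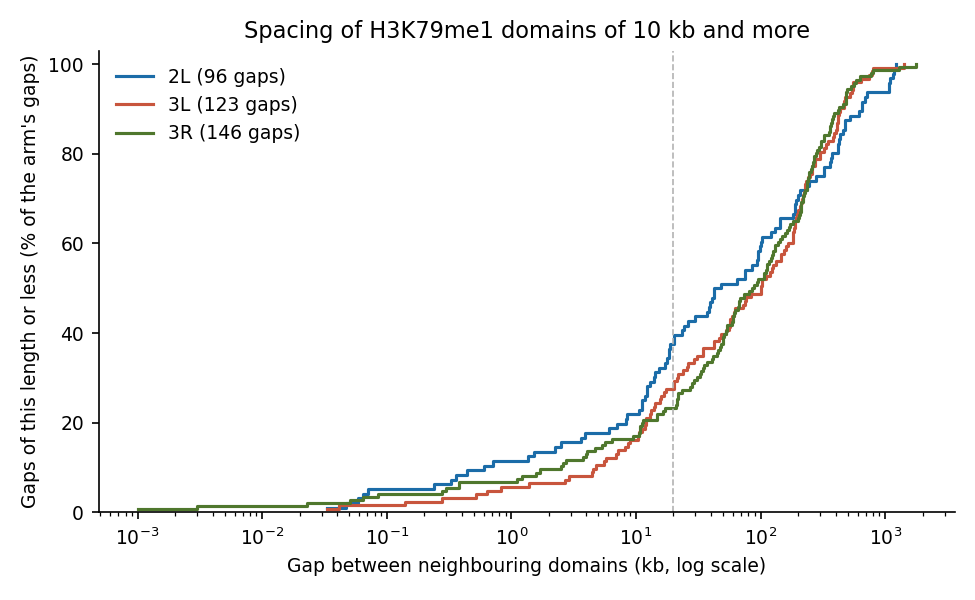
Cumulative share of gaps between neighbouring domains (y axis, % of the gaps of an arm) by gap length (x axis, kb, log scale) for 2L, 3L and 3R, with a dashed line at 20 kb. The 2L curve is the highest at 20 kb, where 37.5% of its gaps are shorter, and the lowest near 1000 kb.

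Domains at most 20 kb apart formed 65 runs with 169 members, or 45.9% of all domains. The replicate lists alone gave 12 and 11 runs, and merging of regions less than 1000 bp apart gave 143. By arm, 56.7% of domains were in runs on 2L, 43.5% on 3L and 40.8% on 3R. Runs of 2 were the rule (48 of 65), and 9 runs had 4 or more members, 5 of them on 2L, 3 on 3L and 1 on 3R. The longest run was on 2L from 14411496 to 14613876, where 7 domains of 10.0 to 55.9 kb filled 72.5% of 202 kb. Their scores lay between 0.51 and 0.65. On 3L, 7 domains filled 89.6% of 177 kb from 11291654 to 11468610, with scores of 0.57 to 0.78 and gaps of 33 to 12035 bp. Replicate 1 covered 74.6% of that span and replicate 2 covered 79.9%. The 3R run with most members had 5, over 97.5 kb from 796932 to 894468, of which replicates 1 and 2 covered 68.4% and 63.9%. A run of 6 on 2L from 19213502 to 19340480 filled 89.3% of 127 kb, and 96.2% of it lay in some region of the combined list. Only 58.8% and 63.8% of that span were in the replicate 1 and replicate 2 lists.

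Between these dense stretches lay long intervals with no very wide domain that were nevertheless marked by narrower regions. The longest ran on 3R between the domains ending at 1949852 and starting at 3712782, 1763 kb apart. It held 124 narrower regions over 15.7% of its length, far below the 38.4% of 3R as a whole. The longest on 3L, 1427 kb from 17748300 to 19175240, held 191 regions over 36.2% of its length. All regions of the combined list covered 37.0% of 3L as a whole. On 2L, 1224 kb between 3893602 and 5117578 held 146 regions over 28.5%, where all regions covered 33.7% of 2L as a whole. This interval ended at the domain of 27.7 kb named above. The values for whole arms include the very wide domains, which alone covered 9.28% of 3R, 8.96% of 3L and 7.14% of 2L. The intervals hold no such domain by definition, so they cannot be compared with whole arms like for like. Replicates 1 and 2 covered 14.4% and 15.7% of the 3L interval, 10.2% and 12.1% of the 2L interval and 6.59% and 7.21% of the 3R interval. The domain with the most distant neighbours was on 2L from 15732862 to 15747396, at least 1066 kb from the next on either side. It was 14.5 kb wide, scored 0.75 and was covered to 97.9% and 94.2% by replicates 1 and 2. The most distant on 3L was the domain of 45.9 kb from 21380112 to 21426048, 637 kb from the nearest, which scored 0.69 and was covered to 80.2% and 80.6%. On 3R it was 15.3 kb wide, from 8771066 to 8786318, 323 kb from the nearest, with a score of 0.87 and covered shares of 65.2% and 68.1%.

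Along the arms the domains were found from near the telomere to near the centromere, in numbers that varied with position. Whether this variation goes beyond that of an even placement was not tested. Of the 10 equal bins of each arm, the one at the telomere held 48 of the 368 domains (13.0%) and the one at the centromere 31 (8.42%), where all regions of the 3 arms had shares of 10.2% and 6.99%. As a share of the regions in the same bin, domains thus made up 5.71% at the telomere and 5.40% at the centromere, and the lowest value was 3.06% in bin 8 from the telomere. The arms had different profiles. On 2L, bin 9 held 21 of 97 domains (21.6%, against 10.3% of all 2L regions). Bin 10, at the centromere, held 5 (5.15%, close to the 5.30% of all 2L regions). On 3L, the telomeric bin held the most, 19 of 124 (15.3%, against 10.7% of all 3L regions). Bins 8, 9 and 10 held 7, 7 and 8, or 5.65%, 5.65% and 6.45%. All 3L regions had shares of 11.9%, 10.8% and 6.17% there. On 3R, bins 3 and 5 held 20 of 147 each (13.6%, against 10.9% and 11.4% of all 3R regions). The centromeric bin held 18 (12.2%, against 8.99%), more than the telomeric 16 (10.9%, against 9.53%). Median scores of domains over the bins of the 3 arms together ranged between 0.63 and 0.68.

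In whole windows of 1 Mb, which leave out 8 domains in the last 0.905 Mb of 3R, the median was 5 domains on 3L and 3R and 3 on 2L, with 5 of 74 windows empty. The window of 2L from 19000001 to 20000000 held 16 domains over 293 kb, the most of any, and the window of 3L at the telomere held 12 over 231 kb. At the centromeric end, the first 1 Mb of 3R held 10 domains over 166 kb, and the outermost was 148 kb from the first base of the arm. On 2L the last domain before the centromere was 1704 kb from the end of the sequence, and on 3L 799.5 kb. At the telomeres, the first domain began 52.04 kb from the end of 3L, 80.4 kb from that of 3R and 144 kb from that of 2L. Assembly gaps and repeats, where reads may find no unique place, were not analysed here.

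**Figure D5:**
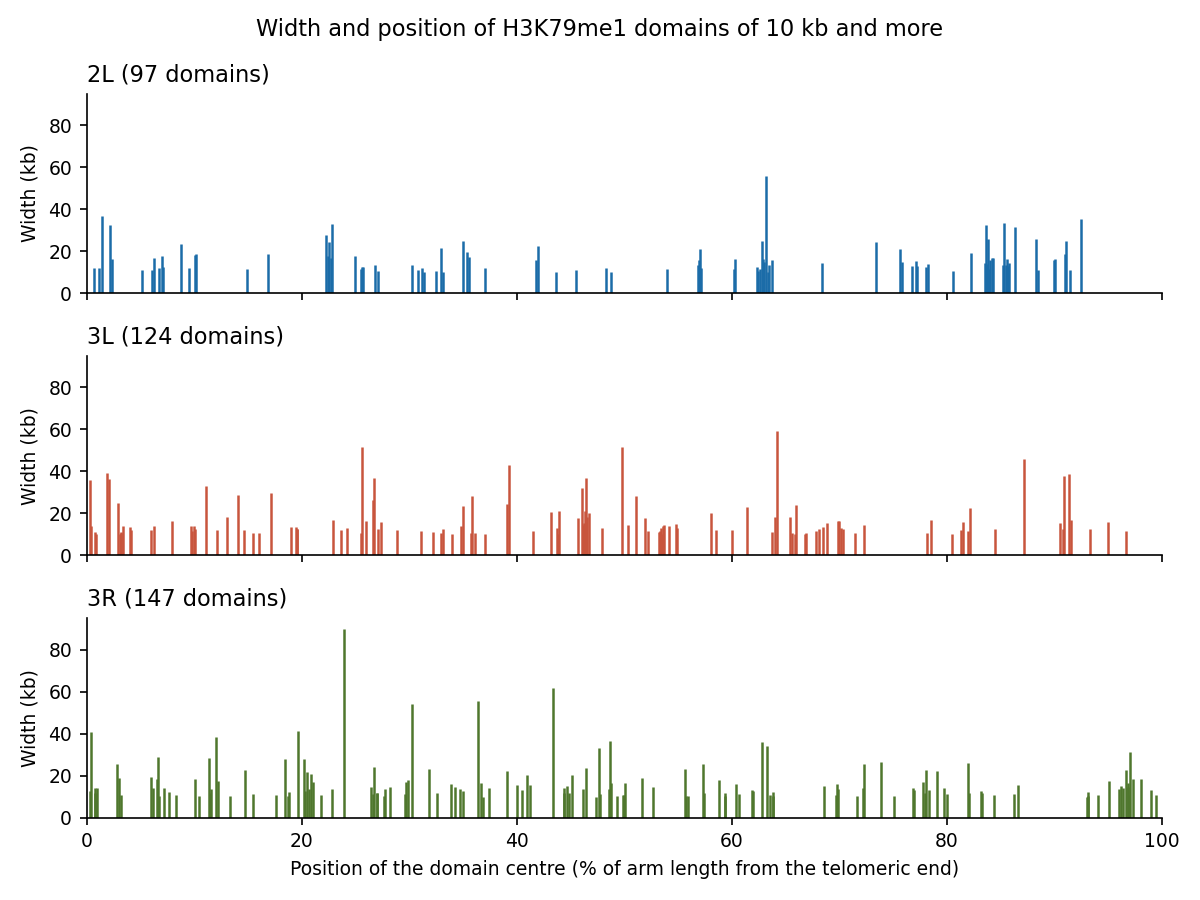
Width in kb (y axis) of each domain at the position of its centre (x axis, % of arm length from the telomeric end) on 2L, 3L and 3R, one line per domain. Dense groups stand near 83.8% on 2L and near the centromere of 3R, and the widest domain, 90045 bp, stands at 23.98% on 3R.

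The replicate lists had wide regions of their own, fewer and nearly all overlapping the domains. Regions of 10 kb or more on the 3 arms numbered 102 in replicate 1 and 115 in replicate 2, or 2.10% and 2.17% of each list's regions there. All 115 from replicate 2, and all but 1 from replicate 1, had a base in a very wide domain of the combined list. That list rests on the same libraries, so such overlap is largely built in. Each overlapped a region of the other replicate. Of their length, 93.1% was inside the other replicate list, in replicate 1 and in replicate 2 alike. The same shares for narrower replicate regions are not given here, so these values set no trait of wide regions apart. Within their lists they too scored high, with median log2 scores of 0.94 and 0.83, against 0.66 and 0.61 for all regions of the 3 arms in the same list. In 91 domains a replicate 1 region of this width was present, in 110 a replicate 2 region, and 72 domains had both. The other 239 domains held no region of 10 kb from either replicate list.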

How the data were processed

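Enriched regions from 2 H3K79me1 ChIP libraries and their inputs were used as the authors deposited them, in 1 list per replicate and 1 combined list. The submitters' processing notes name Bowtie 0.12.7, and the file headers give FlyBase release 5 as the build. The region caller, its threshold and the step that joined the replicates are named in no source used here. The authors deposited a score per region, treated as a log2 value: differences between scores gave ratios of whole numbers (denominator up to 5000, relative tolerance 1e-11) for 96.9% to 99.9% of regions on that scale and at most 1.18% on others. Library depth is unknown. The 1 region named as depleted was left out.

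Widths, base-pair coverage, gaps and positions were computed in Python (3.11.15) using pandas 2.3.3, numpy 2.4.6 and, for rank correlations, scipy 1.17.1. Matplotlib 3.10.9 drew the figures. The coverage, gap and merging steps were checked on simulated lists. Runs join domains at most 20 kb apart. Position was counted from the telomere by the domain centre. The named domains are the 5 widest, the highest and lowest in score, the least covered, the one with the largest replicate difference, the most isolated and the largest run on each arm, and those next to the width minimum. Others, such as the continuous domains, were chosen after their values were seen. The members and lists were chosen with earlier results of these data known. The width rule uses the combined list, and every list rests on the same libraries, so no test was made. Alternatives covered the width minimum, merging, single lists, thresholds and weighting.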

Additional observations from a re-analysis of the deposited data

How the results depend on the processing

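A width minimum of 8 kb gave 573 domains over 10.9% of the arms in 115 runs, with a median gap of 47.7 kb. A minimum of 15 kb gave 156 over 5.12% in 18 runs, with a covered share of 82.0%, a median gap of 286 kb, 10.9% in the telomeric bin, a score 0.12 above regions of 5 to 10 kb and a Spearman rank correlation of width and score of 0.20. Merging of combined regions gave 676 domains over 17.8% in 143 runs, covered to 62.8%, with a median gap of 43.8 kb. The covered share, 77.9% as reported, was 75.4% as an unweighted mean, 80.7% with replicate regions merged and 67.5% with the higher-scoring 50% of them. At 80% of the length 121 domains passed in each list, and at 95% 14 did. The Spearman rank correlation of width and score was 0.30 on 2L and 0.46 on 3R. Single replicate lists gave 102 to 115 domains over 2.14% to 2.40% in 11 to 12 runs, median gaps of 362 to 448 kb, score differences of 0.089 to 0.11, 14.8% to 16.7% in the telomeric and 6.96% to 9.80% in the centromeric bin, covered shares of 76.7% to 79.1%, and 80 to 81 domains covered to 90%. The other alternatives stayed within 1.5 times the value reported. For each change, the cause was not tested. With unknown depth, differences in list size cannot be weighed. No paired analysis was possible because only the ChIP libraries have region lists.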

Other observations

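Some neighbouring domains were separated only by a gap far shorter than any region. On 3R, 3 bp parted a domain of 11.8 kb from 5002126 to 5013974 from one of 26.1 kb from 5013978 to 5040062, and a replicate 2 region ran across the break while no replicate 1 region did. On 3L, 33 bp parted the domains of 21.1 kb from 11359892 to 11380958 and 36.9 kb from 11380992 to 11417888, and neither replicate list held those bases. On 3R, 51 bp parted the domains from 847856 to 857982 and from 858034 to 872482, and both replicate lists held all of them. The first of these scored 0.47, with 77.7% of it in replicate 1 and 18.4% in replicate 2. The second scored 0.57, with 61.7% and 73.9%.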
